A study of Mus musculus with 12 samples.

Results

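The core machinery that builds the autophagosome and fuses it with the lysosome was examined in mouse retinal pigment epithelium (RPE) at 22 and 5 months of age. It was taken as a list of 37 genes, matched by mouse Entrez gene ID in tables of 27179 genes, and all 37 were found. The genes were grouped by step into 5 initiation genes, 8 of the PI3K complex, 8 of membrane supply, 11 of conjugation and 5 of fusion. RPE RNA came from 3 male C57BL/6J mice of 22 months and 3 of 5 months, all labelled wild type with no treatment named, with 1 library per eye and 12 libraries in all. In each age, mice 1 and 2 belonged to batch 1 and mouse 3 to batch 2. The RPE was taken off the eyecup with enzymes and was not sorted, so that cells of the neighbouring retina, choroid and ocular surface could be carried along.

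Macroautophagy encloses cytoplasm in a double membrane and delivers it to the lysosome. A kinase complex around ULK1 starts the process, a lipid kinase complex around Beclin 1 marks the growth site with phosphatidylinositol 3-phosphate (PI3P), lipid transfer and scrambling proteins feed the membrane, and a ubiquitin-like conjugation system attaches LC3 and its relatives to it. SNARE proteins and a small GTPase then join the closed vesicle to the lysosome. In the RPE, which does not divide and takes up shed photoreceptor outer segments every day, part of the same conjugation system also attaches LC3 to phagosomes.

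Summed over both eyes, the raw counts came to between 21495160 and 23674172 in the 22-month mice and between 20853656 and 26266140 in the 5-month mice. Levels are given as CPM, counts scaled to the library total with TMM factors, and as CPM per kilobase of merged exons where genes are compared with each other. Of 14219 genes with a mean normalized count of at least 20, edgeR's quasi-likelihood test with a batch term called 321 lower (2.26%) and 769 higher (5.41%) at 22 months. A call needed an adjusted p below 0.05 together with a log2 fold change of over 0.25 in size. When mouse numbers were used as blocks instead of batches, 183 and 644 genes were called. Marker levels of several cell types also moved with age. The summed level of 16 RPE markers was 14440, 19990 and 39720 CPM in 22-month mice, against 30780, 35970 and 48920 CPM in 5-month mice. By estimate 15 of the 16 were below 0 and 1 was above, and 6 (Pmel, Mitf, Tyrp1, Mlana, Dct and Tyr) were called lower. The summed level of 20 rod photoreceptor markers was 20060, 16450 and 4337 CPM in 22-month mice, against 5345, 4778 and 2945 CPM in 5-month mice, and 18 of the 20 were called higher. By median over the tested markers, those of cone, bipolar, macrophage, mast, T and B, surface epithelial and ciliary cells were also higher. So were those of the joint list of amacrine, horizontal and ganglion cells. The Mueller glia and astrocyte list had a median of 0.14, with 6 of 10 markers above 0. Medians of the endothelial, pericyte and skeletal muscle lists were below 0. Only 2 of 9 T and B, 6 of 9 mast and 5 of 7 surface epithelial markers were tested. A marker that is high at 1 age can reach the mean count through that age alone, so these medians are descriptions. No list had a marker at 0 in every mouse.

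No gene of the core machinery was downregulated or upregulated at the thresholds. By edgeR 0 of the 36 tested genes were called lower and 0 higher, against 7.67% of all tested genes called in either direction. At an unadjusted p under 0.05, 7 were lower (Vamp8, Wipi1, Atg101, Snap29, Atg12, Rab7 and Becn1) and 2 higher (Atg16l2 and Atg4c). These 9 are 25% of the 36, while 31.1% of all genes reached that level. By direction, 19.4% of the machinery and 14.6% of all genes were lower, and 5.56% and 16.5% were higher. DESeq2 on the same mouse sums called 3 lower, Vamp8, Wipi1 and Snap29, and 0 higher, with 6.07% of all genes called lower and 10.6% called higher. Fits that took single eyes as samples, both eyes of a mouse among them, called more of all genes and also of the machinery. EdgeR called 5 lower (Vamp8, Wipi1, Snap29, Atg12 and Atg101) and 1 higher (Atg16l2), against 8.88% and 11.9% of all genes. Voom, which took the mouse as a random effect, called 4 and 1, against 8.32% and 11.1%. DESeq2 on the batch-corrected table called 4 and 1, against 9.66% and 13.7%, and limma-trend on the normalized values called 6 and 1, against 10.2% and 12.5%. Atg9b, the paralog of the lipid scramblase gene Atg9a, stayed under the filter on low counts and was not tested there.

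The differences were small and mostly below 0. The median log2 fold change of the 36 genes was -0.09, and that of all tested genes was -0.01. The estimate was below 0 for 27 genes, or 75% of them, and above 0 for 9, while 51.7% of all genes were below 0. The size of the change, without its sign, had a median of 0.12 in the machinery and 0.18 over all genes. The 95% interval of the log2 fold change lay within 0.5 of 0 for 30 genes, and within 1 for all 36. The 6 genes whose intervals went beyond 0.5 were Vamp8, Wipi1, Atg101, Atg12, Atg4c and Atg16l2.

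**Figure D1:**
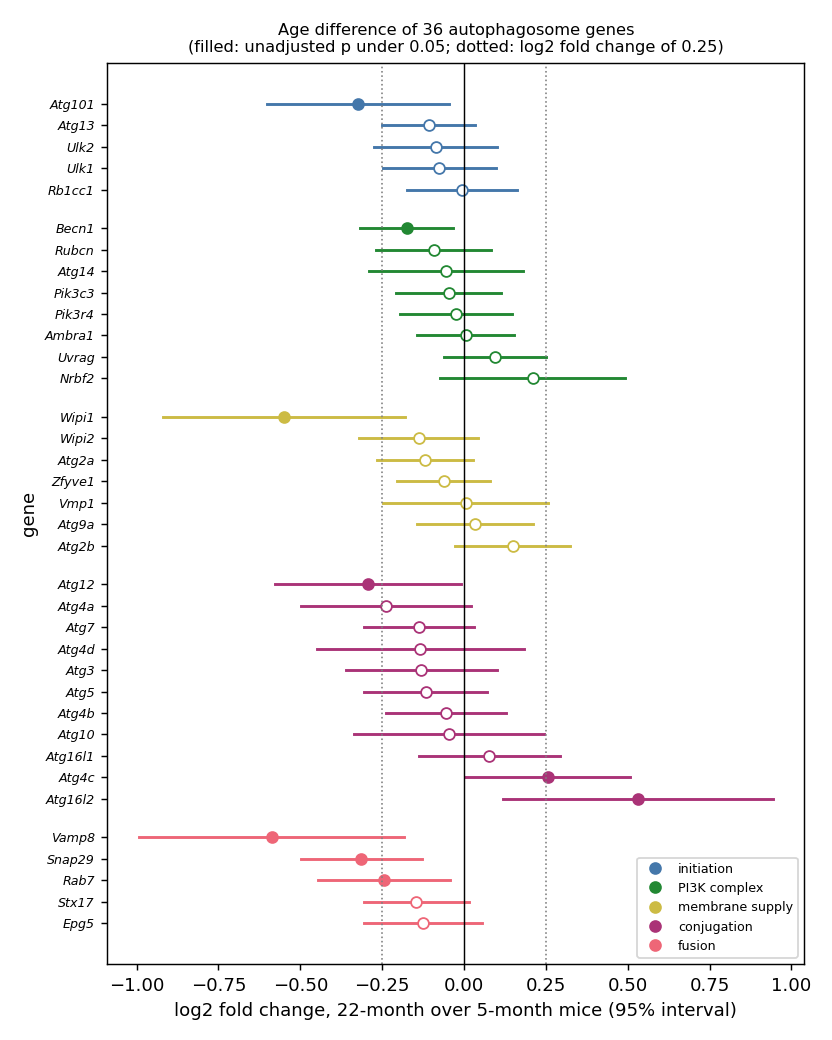
Log2 fold change of 22-month over 5-month mice (x axis) for the 36 tested genes (rows, grouped by step), with the 95% interval from edgeR as a line (n = 3 mice per age). Filled points have an unadjusted p under 0.05 and dotted lines mark a log2 fold change of 0.25. The estimates of all 5 initiation and all 5 fusion genes lie below 0, and Vamp8 (-0.59) and Atg16l2 (0.53) lie farthest out.

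Batches were also examined one by one, since levels differed between them by a median of 0.36 (log2, without sign) over the 36 genes. Every 22-month mouse was below every 5-month mouse of its own batch for 15 of the 36 genes (41.7%), against 24.2% of all genes. The reverse held for 4 genes (11.1%), against 22.5% of all genes. By the ratio of group means, 23 genes were lower at 22 months in batch 1 and 32 in batch 2, with median log2 ratios of -0.05 and -0.12. For 34 of the 36 genes the difference between batches was larger than that between ages. The median of 0.36 and the counts of 23, 32 and 34 were taken for the machinery only, so they do not show anything particular to it. The pair of same-age mice within batch 1 differed by a median of 0.091 (log2) at 22 months and 0.074 at 5 months. Over all genes these medians were 0.125 and 0.117. The age difference was beyond the spreads of both pairs for 17 machinery genes (47.2%), against 51.1% of all genes.

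**Figure D2:**
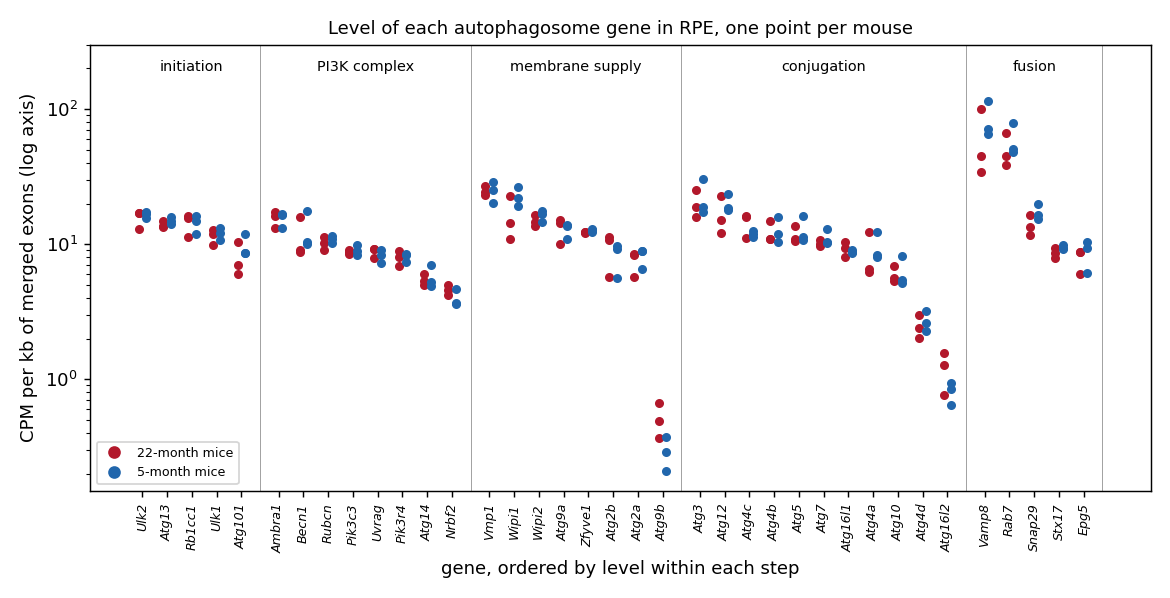
Level of each of the 37 genes in CPM per kilobase of merged exons (log axis), with 1 point per mouse, 22-month mice left of 5-month mice. Vamp8 and Rab7 stand highest, and Atg16l2 and Atg9b lowest. The points of the ages overlap for most genes.

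Within the machinery, levels per length spanned a wide range. Vamp8 was highest at 60.0 CPM per kilobase in 22-month mice and 83.9 in 5-month mice, followed by Rab7 at 50.1 and 59.4. Vmp1, Atg3 and Wipi1 came next, at 24.8, 21.0 and 19.2 CPM per kilobase over all mice. Atg16l2, at 1.01, and Atg9b, at 0.40, were the lowest. The exon length is that of all annotated transcripts merged, so the level of a gene with long minor isoforms is understated.

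The initiation complex consists of the kinases ULK1 and ULK2, the scaffold FIP200 (gene Rb1cc1), the adaptor ATG13 and its partner ATG101, which stabilizes ATG13. All 5 estimates were below 0, with a median log2 fold change of -0.09, and the medians were -0.05 in batch 1 and -0.13 in batch 2. Atg101 (Entrez gene ID 68118, chr15:101284301-101290947, plus strand, GRCm38) had 8.95, 7.69 and 13.2 CPM in 22-month mice, against 10.9, 11 and 15 CPM in 5-month mice. The ages overlapped over all mice but not within either batch. Its log2 fold change was -0.32 (SE 0.113), with an adjusted p of 0.122 in edgeR.

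Atg13 had 49.7, 48.9 and 53.9 CPM in 22-month mice, against 51.5, 54.3 and 58.6 CPM in 5-month mice, a log2 fold change of -0.11 (SE 0.058, adjusted p = 0.257 in edgeR). Ulk2, the highest of the group per length at 16.1 CPM per kilobase, had 97.3, 97.3 and 74.6 CPM in 22-month mice, against 98.9, 96.1 and 89.0 CPM in 5-month mice. Its log2 fold change of -0.09 (SE 0.076, adjusted p = 0.473 in edgeR) came mainly from batch 2, where the log2 ratio was -0.25, while it was -0.003 in batch 1. Ulk1 had a log2 fold change of -0.08 and Rb1cc1 one of -0.01, with intervals of -0.25 to 0.10 and of -0.17 to 0.16.

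The PI3K complex holds the catalytic subunit VPS34 (gene Pik3c3), its regulatory subunit VPS15 (gene Pik3r4) and Beclin 1 (gene Becn1). ATG14 and NRBF2 direct it to autophagosome formation, UVRAG to endosomes, AMBRA1 links it to upstream signals, and Rubicon (gene Rubcn) restrains it in autophagy while it is needed for LC3-associated phagocytosis. Of the 8 genes, 5 were below 0 and 3 above, with a median log2 fold change of -0.04. By batch the medians were 0.01 and -0.11.

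Becn1 (Entrez gene ID 56208, chr11:101288258-101302286, minus strand) had 41.4, 42.7 and 75.4 CPM in 22-month mice, against 47.6, 48.7 and 82.7 CPM in 5-month mice. The 22-month mice were lower within each batch, by a log2 fold change of -0.17 (SE 0.058, adjusted p = 0.111 in edgeR). That difference was far smaller than the batch difference of Becn1, which was 0.81 on the log2 scale, higher in batch 2. Nrbf2 had 8.47, 7.82 and 9.30 CPM in 22-month mice, against 6.73, 6.83 and 8.66 CPM in 5-month mice. It was higher within each batch, with a log2 fold change of 0.21 (SE 0.115) and an adjusted p of 0.266.

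Ambra1, the highest of the group per length at 15.5 CPM per kilobase, had 91.1, 86.2 and 69.5 CPM in 22-month mice, against 87.4, 88.2 and 69.9 CPM in 5-month mice, a log2 fold change of 0.01 (SE 0.060, adjusted p = 0.954 in edgeR). Its interval ran from -0.14 to 0.15. Uvrag was the other gene higher within both batches, at a log2 fold change of 0.09. Pik3c3, Pik3r4, Atg14 and Rubcn lay between -0.09 and -0.02, and each of their intervals held 0.

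Membrane supply takes in the lipid transfer proteins ATG2A and ATG2B, the scramblases ATG9A, ATG9B and VMP1, the PI3P-binding proteins WIPI1 and WIPI2, which recruit later factors, and DFCP1 (gene Zfyve1), which marks the site on the endoplasmic reticulum. The median of the 7 tested genes was -0.06, with 4 below 0. Wipi1 (Entrez gene ID 52639, chr11:109573521-109611389, minus strand) stood apart from the others. It had 46.7, 60.9 and 96.4 CPM in 22-month mice, against 81.9, 94.0 and 113 CPM in 5-month mice. The log2 fold change was -0.55 (SE 0.150), with an adjusted p of 0.0784 in edgeR. The ages did not overlap within a batch, and the log2 ratio was -0.71 in batch 1 and -0.23 in batch 2.

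Wipi2, its paralog that binds ATG16L1, had a log2 fold change of -0.14 and Atg2a one of -0.12, both lower in 22-month mice within each batch. Atg2b went the other way, with 84.7, 81.3 and 42.8 CPM in 22-month mice, against 69.7, 73.4 and 42.4 CPM in 5-month mice, a log2 fold change of 0.15 (SE 0.072, adjusted p = 0.216 in edgeR). Vmp1, the highest of the group per length, had 68.3, 64.0 and 74.5 CPM in 22-month mice, against 56.3, 70.1 and 80.7 CPM in 5-month mice, a log2 fold change of 0.01 (SE 0.102, adjusted p = 0.975 in edgeR). The 5-month mice of batch 1 alone differed by 0.315 on the log2 scale in Vmp1, the widest such gap of the list at that age. Atg9a had 0.03 and Zfyve1 -0.06, with intervals that held 0.

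Atg9b was close to the limit of detection. Its raw counts in the left and right eyes were 27 and 33, 23 and 19, and 18 and 15 in 22-month mice 1 to 3, against 25 and 6, 13 and 11, and 13 and 7 in 5-month mice 1 to 3. Summed by mouse this was 2.62, 1.91 and 1.43 CPM in 22-month mice, against 1.47, 1.14 and 0.81 CPM in 5-month mice. The 22-month mice were higher within each batch, by log2 ratios of 0.80 and 0.82. Without the filter on low counts edgeR gave a log2 fold change of 0.77 (SE 0.25, adjusted p = 0.119).

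The conjugation system consists of the E1-like enzyme ATG7, the E2-like enzymes ATG3 and ATG10, the ubiquitin-like ATG12 joined to ATG5 and held by ATG16L1, and the ATG4 proteases that process and release LC3. Of its 11 genes 8 were below 0, and the median log2 fold change was -0.12. It was the only step with genes at an unadjusted p under 0.05 in both directions. Atg12 (Entrez gene ID 67526, chr18:46732417-46741724, minus strand) had 58.1, 72.4 and 107 CPM in 22-month mice, against 85.1, 87.8 and 113 CPM in 5-month mice. The log2 fold change was -0.29 (SE 0.116, adjusted p = 0.153 in edgeR), and it was -0.41 in batch 1 and -0.07 in batch 2.

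Atg16l2 (Entrez gene ID 73683, chr7:101286325-101302267, minus strand), the little expressed paralog of Atg16l1, had 10.2, 8.19 and 4.95 CPM in 22-month mice, against 6.11, 5.45 and 4.19 CPM in 5-month mice. In single libraries its raw counts were 53 to 117 at 22 months and 45 to 69 at 5 months. The log2 fold change was 0.53 (SE 0.168, adjusted p = 0.103 in edgeR), higher within each batch. Atg16l1, at 29.4 ± 3.79 CPM in 22-month mice and 27.8 ± 0.748 CPM in 5-month mice (SD, n = 3 each), had 0.08 with an interval of -0.14 to 0.29.

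Atg4c (Entrez gene ID 242557, chr4:99189159-99297258, plus strand), one of the LC3 proteases, was higher only in batch 1. It had 50.7, 51.2 and 35.1 CPM in 22-month mice, against 39.5, 37.7 and 36.1 CPM in 5-month mice, so that 22-month mouse 3 was below all the 5-month mice. The log2 fold change was 0.26 (SE 0.102, adjusted p = 0.155 in edgeR). Leaving out either mouse of batch 2 made it 0.40, with an adjusted p of 0.0192 or 0.0194. Its relatives Atg4a, Atg4b and Atg4d had log2 fold changes of -0.24, -0.06 and -0.13.

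Atg3, the highest of the conjugation genes per length, had 32.5, 38.5 and 52.0 CPM in 22-month mice, against 38.8, 35.4 and 62.1 CPM in 5-month mice, a log2 fold change of -0.13 (SE 0.093, adjusted p = 0.380 in edgeR). The other enzymes and the ATG12 partner lay close by, with Atg7 at -0.14, Atg5 at -0.12 and Atg10 at -0.05. Atg7 alone of these was lower within both batches.

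Fusion had the lowest median of the steps over both eyes, -0.24, and its medians by batch were -0.24 and -0.19. That place was not held in left eyes alone, where the fusion median was -0.13 and that of initiation -0.15. In the fit over eyes that included rod marker levels fusion stayed lowest, but only just, at -0.14 against -0.13 for initiation. All 5 genes were lower in 22-month mice within both batches. The steps were compared by their medians and counts only, without a test between steps. Vamp8 (Entrez gene ID 22320, chr6:72385221-72390667, minus strand), the lysosomal SNARE of the fusion complex, had 79.2, 104 and 233 CPM in 22-month mice, against 150, 166 and 266 CPM in 5-month mice. The log2 fold change was -0.59 (SE 0.165, adjusted p = 0.0823 in edgeR), the lowest estimate in the list. In batch 1 the log2 ratio was -0.79, and in batch 2 it was -0.19.

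Snap29 (Entrez gene ID 67474, chr16:17406000-17430826, plus strand), which bridges the SNAREs of both membranes, had 40.5, 46.1 and 56.6 CPM in 22-month mice, against 53.0, 56.4 and 68.1 CPM in 5-month mice. The log2 ratio was -0.34 in batch 1 and -0.27 in batch 2, and the p was the smallest of the list (log2 fold change -0.31, SE 0.075, adjusted p = 0.0614 in edgeR). The eyes differed more, with -0.13 in left and -0.51 in right eyes for Snap29, and -0.30 and -0.91 for Vamp8. Rab7 (Entrez gene ID 19349, chr6:87999106-88045270, minus strand), the GTPase of late endosomes and lysosomes, had 101, 118 and 173 CPM in 22-month mice, against 125, 133 and 206.5 CPM in 5-month mice. Its log2 fold change was -0.24 (SE 0.082, adjusted p = 0.113 in edgeR). Stx17, the SNARE on the autophagosome, had -0.15, and Epg5, the tether on the lysosomal side, had -0.12, with intervals that held 0.

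**Figure D3:**
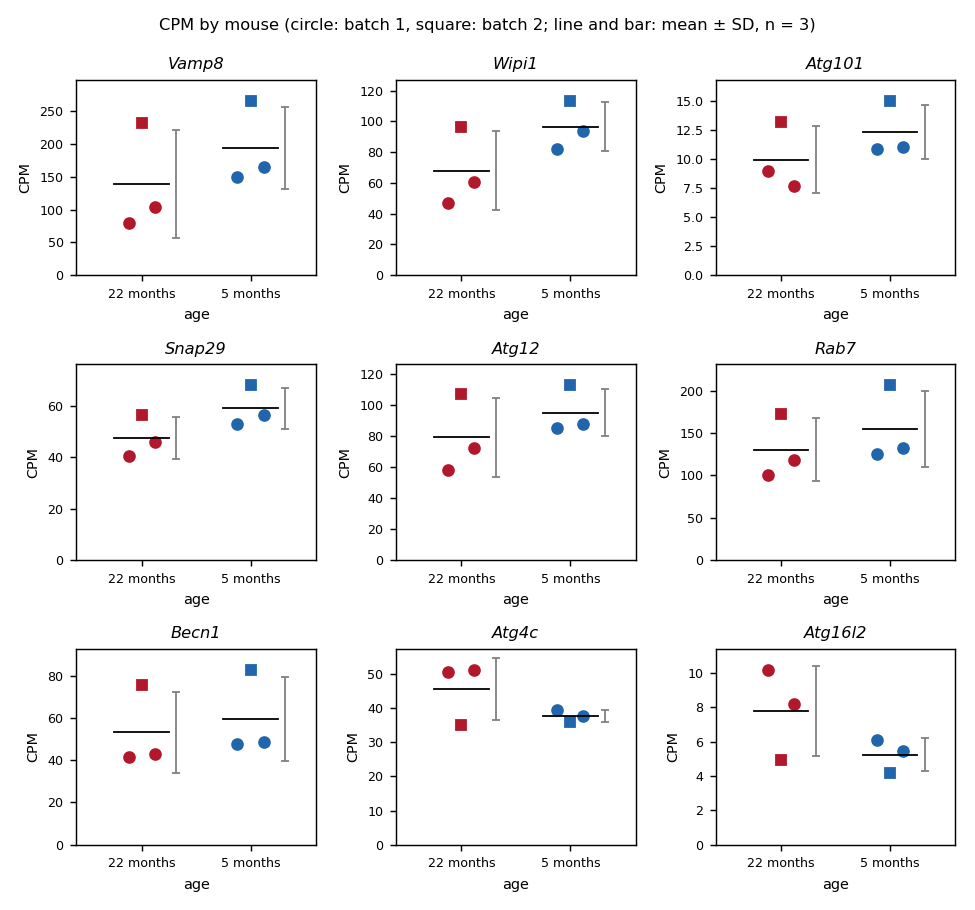
CPM in each mouse of the 9 genes with an unadjusted p under 0.05, 22-month mice left of 5-month mice (circles batch 1, squares batch 2; line and bar, mean ± SD, n = 3). For Vamp8, Wipi1, Atg101, Snap29, Atg12, Rab7 and Becn1 the batch 2 mouse of 22 months lies above both 5-month mice of batch 1, though only just for Snap29.

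Several of these genes ordered the mice as the RPE markers did. From the lowest, the summed RPE marker level ranked 22-month mice 1 and 2, then 5-month mice 1 and 2, then 22-month mouse 3 and 5-month mouse 3, and the summed rod marker level gave the reverse order. Vamp8, Wipi1, Snap29, Rab7, Becn1 and Atg12, which are 6 of the 7 lower genes at an unadjusted p under 0.05, ranked all 6 mice exactly as the RPE markers did. Atg16l2 ranked them in exactly the opposite order, as the rod markers did. Over all tested genes 6.87% had the same order and 7.52% the opposite one, while in the machinery these were 16.7% and 2.78%. The 6 genes named were picked as lower at 22 months. All 6 were lower within both batches and higher in batch 2, as the summed RPE markers were, and Atg16l2 had the reverse pattern. That pattern fixes much of the order in advance, so the match is a description only. The median log2 fold change of the 16 RPE markers was -0.72, beyond that of Vamp8. In such bulk samples fewer RPE cells and less RNA of a gene per RPE cell cannot be told apart.

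**Figure D4:**
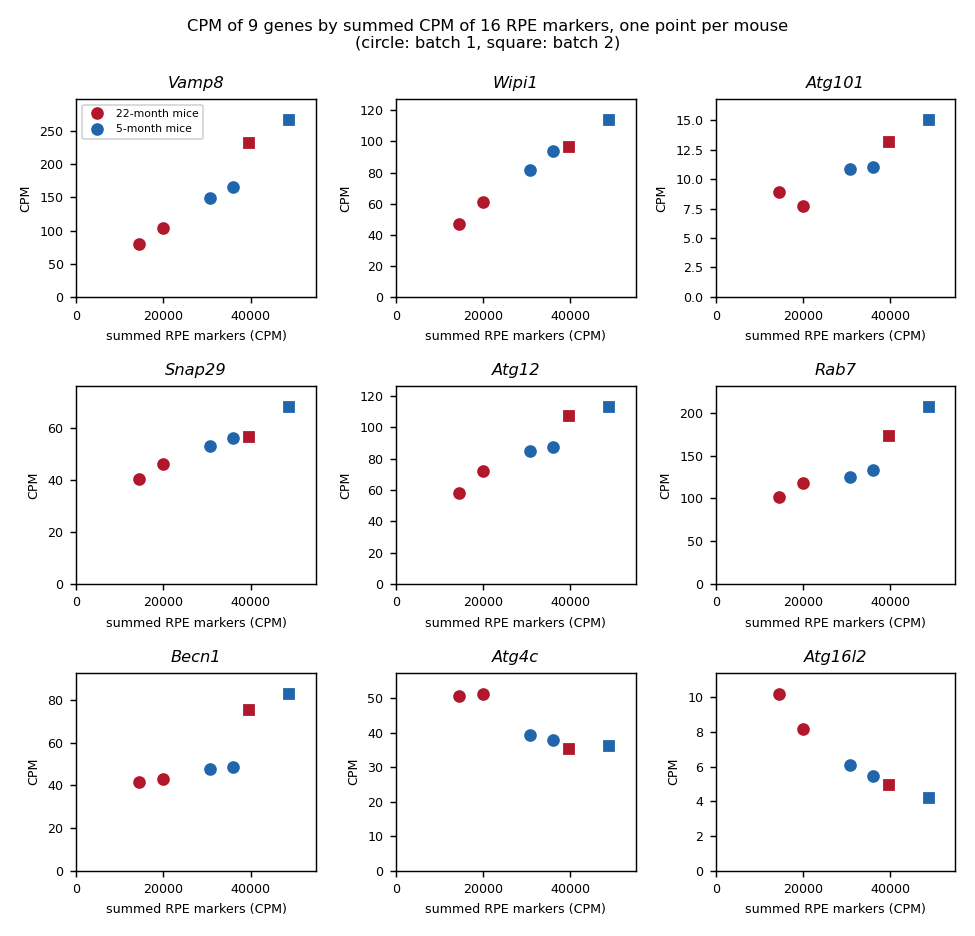
CPM of the 9 genes with an unadjusted p under 0.05 (y axis) against the summed CPM of 16 RPE markers (x axis), with 1 point per mouse (red 22 months, blue 5 months; circles batch 1, squares batch 2). Vamp8, Wipi1, Snap29, Atg12, Rab7 and Becn1 keep the order of the RPE markers in all 6 mice, and Atg16l2 has the opposite order.

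The eyes of one mouse share its age and batch, so that their difference holds no age difference. In each mouse the eye with the higher rod score, the mean log2 CPM of the rod markers, was compared with the other eye. The scores of the eyes differed by 1.44 to 2.54, except in 22-month mouse 2, where they differed by 0.13. Vamp8 was lower in the eye of higher rod score in 5 of 6 mice, with 61.6 against 97.2 CPM in 22-month mouse 1 and 91.7 against 113 CPM in 22-month mouse 2, and a median log2 difference of -0.30 over all mice. The exception was 22-month mouse 3, where the RPE markers were also higher in that eye, by a median of 0.13.

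Wipi1, Snap29, Rab7, Becn1 and Atg101 were likewise lower in the eye of higher rod score in 5 of 6 mice, with median log2 differences of -0.16, -0.15, -0.14, -0.13 and -0.09. Atg4a, a protease of the LC3 cycle that was not among the 9, did so too, with a median of -0.17. Over the 36 genes, 7 (19.4%) were lower there in at least 5 mice and 7 (19.4%) in at most 1, against 19.9% and 20.5% of all genes, and the median difference of the list stayed between -0.04 and 0.03 in each mouse. Atg4d, its paralog, was higher in the eye of higher rod score in all 6 mice, with a median log2 difference of 0.26. In a fit over single eyes that included their rod scores, the log2 fold change by age was -0.27 for Vamp8 (adjusted p = 0.460 in edgeR), -0.37 for Wipi1 (0.216) and -0.17 for Snap29 (0.428). Without the rod score, the same fit over eyes gave -0.59, -0.55 and -0.31. Atg101, Atg12 and Atg16l2 moved less, to -0.26, -0.24 and 0.45 with the rod score, against -0.32, -0.29 and 0.55 without it, and Becn1 had -0.10 with it, against -0.17. Over all genes the fit called 72 lower and 150 higher with the rod score, against 1263 and 1695 without it. Both eyes of a mouse counted as samples. Rod scores were themselves higher at 22 months within each batch, so the terms for age and rod score overlap in this fit.

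**Figure D5:**
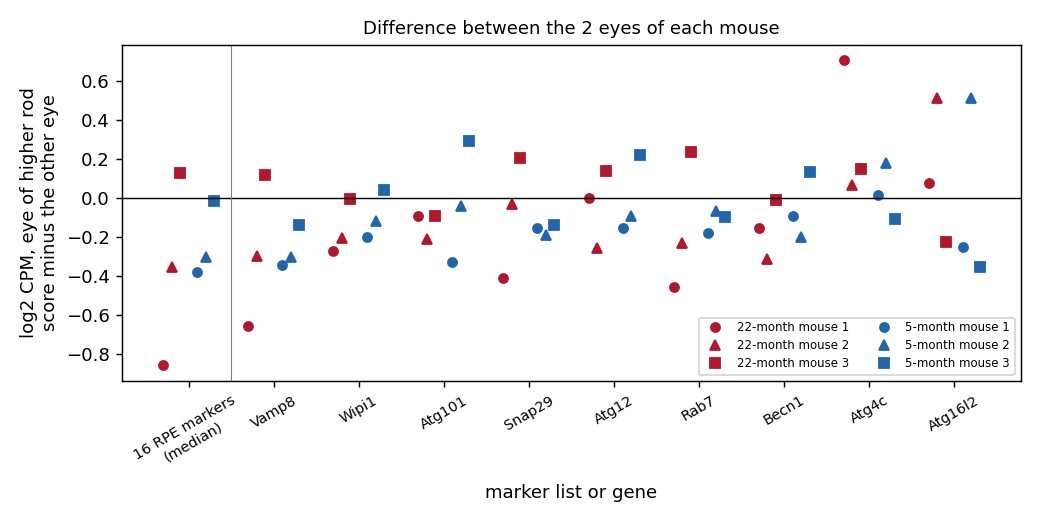
Difference in log2 CPM between the eye of higher rod score and the other eye (y axis), for the median of the 16 RPE markers and the 9 genes with an unadjusted p under 0.05, with 1 point per mouse (red 22 months, blue 5 months). Points of Vamp8 and Rab7 lie below 0 in 5 of 6 mice, those of Atg4c mostly above.

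Genes that act with the core machinery were also mostly lower by estimate. They were listed in 3 groups, the LC3 and GABARAP proteins with cargo receptors, the HOPS tethering complex with other fusion factors, and phosphoinositide and nucleation factors. Of the 39 tested genes edgeR called 2 lower and 0 higher, with 2.26% of all genes called lower. The median log2 fold change was -0.08, with 29 genes below 0. Map1lc3a, an LC3 gene, had 51.5, 59.5 and 98.3 CPM in 22-month mice, against 73.2, 88.1 and 128 CPM in 5-month mice. It was downregulated by a log2 fold change of -0.49 (SE 0.104, adjusted p = 0.0485 in edgeR). Like Vamp8, it ranked the mice exactly as the summed RPE markers did, and with the rod score as a term the value was -0.36 (adjusted p = 0.201). Tecpr1, which tethers autophagosomes to lysosomes through ATG5 and ATG12, had 166.5, 166.2 and 164 CPM in 22-month mice, against 205, 229 and 211 CPM in 5-month mice. It was downregulated by a log2 fold change of -0.38 (SE 0.072, adjusted p = 0.0420 in edgeR), and all the 22-month mice lay below all the 5-month mice. With the rod score it was -0.27 (adjusted p = 0.0959), and with mouse numbers as blocks the adjusted p was 0.0568. Both calls were lost when mouse 1 or 2 of either age was left out, with adjusted p from 0.0811 to 0.169 for Map1lc3a and from 0.0864 to 0.152 for Tecpr1 in edgeR, and that of Map1lc3a with DESeq2 size factors (0.0513).

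The promoters were searched for CACGTG, the palindromic E-box core bound by the MiT family of factors, which includes TFEB and MITF, and for GTCACGTG, the longer form that contains it and is found in the CLEAR element of lysosomal genes, on both strands. RefSeq windows (GRCm38.p6) of 250 bases before to 50 after the start site were at hand for 31 of the 37 genes. CACGTG was in 6 of the 31 (19.4%), against 8.09% of all genes with a window, and GTCACGTG in 4 (12.9%), against 2.55%. The shares over all genes take in genes too low to be tested here, while 36 of the 37 machinery genes were tested. No share over the tested genes was taken, so the sets are unlike. The stretches below, 40 bases each in the direction of transcription, are shown to place these members' motifs, with the core in capitals.
Atg14: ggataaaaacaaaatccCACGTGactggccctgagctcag
Nrbf2: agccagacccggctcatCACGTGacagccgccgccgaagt
Rubcn: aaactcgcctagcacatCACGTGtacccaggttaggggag
Atg3: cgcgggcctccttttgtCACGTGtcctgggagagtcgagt
Atg5: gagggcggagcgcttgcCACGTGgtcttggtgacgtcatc
Atg7: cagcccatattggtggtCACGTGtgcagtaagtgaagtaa

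The stretches lie at chr14:47568413-47568452 (Atg14, minus strand), chr10:67285467-67285506 (Nrbf2, minus), chr16:32868432-32868471 (Rubcn, minus), chr16:45158718-45158757 (Atg3, plus), chr10:44268308-44268347 (Atg5, plus) and chr6:114670947-114670986 (Atg7, plus). Counted from the start site, with negative positions before it, the motif was centred at 2 in Atg14, -11 in Atg5, -85 in Rubcn, -91 in Atg3, -129 in Atg7 and -205 in Nrbf2. The start sites used for Atg7 and Rubcn are alternative ones, 27969 and 9363 bases inside the annotated gene, and Rubcn has 1 more window, at its outer start site. The window of Atg3 held 2 copies of CACGTG, of which 1 is shown. The longer form was in Atg14, Nrbf2, Atg3 and Atg7. The log2 fold changes of the 6 genes ran from -0.14 in Atg7 to 0.21 in Nrbf2, with a median of -0.11, and 5 were below 0. Of the 9 genes with an unadjusted p under 0.05, 7 had a window and 0 held the motif in it.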

How the data were processed

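The authors, per the labels and the paper, used FastQC for read quality, Trimmomatic for trimming, HISAT2 for alignment to mm10 and featureCounts for counts per gene. Their versions and whether counting used strand: not given in the sources used here. Reads from stretches that overlapping genes share, or that are near-identical between paralogs in the list, cannot be told apart in such tables. Libraries were made with a stranded total RNA kit after removal of ribosomal RNA. The deposited raw table holds counts per gene. The authors' ComBat-seq step made batch-corrected values, treated as estimated counts and rounded in alternatives, and the deposited normalized signal equals those values over the size factor of each library from DESeq2.

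Here raw counts were summed by mouse (n = 3 per age) and tested with edgeR 4.0.16 in R 4.3.3 (TMM; batch and age; mean deposited normalized count of at least 20; Benjamini-Hochberg adjusted p under 0.05 and log2 fold change beyond 0.25, the study's thresholds). A prior count of 1 was added for log2 CPM. Alternatives used limma 3.58.1 and DESeq2 1.42.0. The members, lists and alternatives were chosen with earlier results of these data known, and the removal of 3 libraries of extreme rod score after seeing the data. Genes given with a value in every mouse are, in each step, the 2 of smallest p and the highest per length, and up to 2 called genes per list and direction; others were named after their values were seen. The test was checked on simulated counts.

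Whether mouse numbers pair the mice was checked across genes, by correlating deviations from group means. Same-numbered mice gave 0.769, 0.608 and 0.848, and mice 1 and 2 crossed gave 0.523 and 0.612, so that these values follow the batch the labels give.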

Additional observations from a re-analysis of the deposited data

How the results depend on the processing

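The alternatives changed the counts over all genes widely, and they moved estimates too. The machinery median ran from -0.12 to -0.050 over them, and the log2 fold change of Vamp8 from -0.91 to -0.27. By edgeR the machinery counts stayed at 0 lower and 0 higher with DESeq2 size factors, both other filters on low counts, no batch term, the replicate block, one eye only, the rod score as a covariate, no fold threshold and removal of 3 libraries with extreme rod scores. The replicate block gave 183 genes lower over all genes and moved no machinery call. With each eye as a sample, 5 machinery genes were lower and 1 higher by edgeR, 4 and 1 by voom with mouse as a random effect, 4 and 1 by DESeq2 on batch-corrected counts, and 6 and 1 by limma-trend. DESeq2 on mouse sums called 3. Of these, the mouse sums alone do not use the eyes as samples; the voom fit estimated a correlation of 0.0481 between the eyes of a mouse, so that it treated them as nearly independent. Leaving out a mouse gave 0 to 2 lower and 0 to 1 higher, the upper ends without mouse 3 of either age (Vamp8 and Wipi1 lower, Atg4c higher). Without mouse 3 of either age, batch 1 alone sets the age estimate, so these are in effect the same comparison.

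Over all genes, 863 were lower and 1502 higher by DESeq2 on mouse sums, 1263 and 1695 with each eye as a sample, 1183 and 1572 by voom, 1374 and 1949 by DESeq2 on batch-corrected eyes, and 1450 and 1771 by limma-trend. No batch term gave 0 and 2 by edgeR (409 and 607 at an unadjusted p under 0.05), left eyes 67 and 111, right eyes 3 and 9, the rod covariate 72 and 150, and removal of the extreme libraries 226 and 439. Leaving out a mouse gave 0 to 1266 lower and 1 to 1729 higher.

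The machinery median was -0.12 with no filter, -0.061 in left and -0.065 in right eyes, and -0.12 to -0.050 with a mouse left out. The initiation median was -0.12 with no filter, -0.15 in left eyes, -0.13 with the rod covariate, -0.13 without the extreme libraries, and -0.12 to -0.046 with a mouse left out. The PI3K complex median was -0.069 with no filter and -0.064 to 0.014 with a mouse left out, the upper end without mouse 3 of either age. The membrane supply median was -0.11 with the rod covariate. The conjugation median was -0.031 in left eyes, -0.065 with the rod covariate, -0.053 without the extreme libraries, and -0.12 to -0.046 with a mouse left out. The fusion median was -0.13 in left and -0.47 in right eyes, -0.14 with the rod covariate and -0.14 without the extreme libraries. The cause of these shifts was not tested.

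Estimates near 0 changed sign. Ulk2 was 0.045 in right eyes and Atg2b -0.0034 in left eyes. Ambra1 was -0.015 with filterByExpr, -0.028 with no filter, -0.0058 with limma-trend, -0.020 in right eyes and -0.021 to 0.025 with a mouse left out. Vmp1 was -0.016 with filterByExpr, -0.029 with no filter, -0.0017 with no batch term, -0.028 by DESeq2 on batch-corrected eyes, -0.038 with limma-trend, -0.032 in right eyes, -0.0041 without the extreme libraries, and -0.098 to 0.081 with a mouse left out. Counts of the lowest genes, Atg9b above all, limit the precision of their values.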

Other observations

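Across the 36 tested genes the batch difference followed exon length. Longer genes were lower in batch 2, with a Spearman correlation of -0.754 across these genes and of -0.514 across 13785 tested genes with a length, which are not independent points and share their libraries. The ends were Atg2b, with 7546 bases of merged exons and a log2 batch difference of -0.85, and Vamp8, with 2311 bases and 1.05. The age difference had a Spearman correlation with length of 0.195 in the machinery and 0.102 over all genes.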
